A study of Saccharomyces cerevisiae with 14 samples.

Results

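The wild-type control of this series was measured as 2 pairs of arrays, coded ML1 and ML8, and these 4 of the 14 arrays are compared here. They were chosen by title, with no use of measured values: arrays A and B of ML1 against arrays A and B of ML8. Each array carries total RNA from a separate culture of Saccharomyces cerevisiae in the rich medium YPD, harvested in log phase at an OD600 of about 0.5 and hybridised to an Affymetrix Yeast 2.0 array. The labels give all 4 cultures the same genotype (MATa his3D200 leu2D1 met15D0 trp1D63 ura3-167) and the same treatment, and state no batch and no condition for which either pair served as control. The other 10 arrays, also in pairs, hold npt1Δ, pnc1Δ, bna1Δ, tna1Δ and wild type with 5 mM nicotinamide (NAM), which the series title describes as conditions that inhibit sirtuins. Since the labels describe ML1 and ML8 alike, their difference shows what separates cultures of the wild type when no labelled factor differs.

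Sirtuins are deacetylases that consume NAD+, and nicotinamide, a product of their reaction, inhibits them. Sir2, the founding member, acts with Sir3 and Sir4 to silence genes next to telomeres and at the silent mating loci HML and HMR, and it silences ribosomal DNA in another complex. Npt1 and Pnc1 recycle nicotinamide and nicotinic acid into NAD+, Bna1 works in the synthesis of NAD+ from tryptophan, and Tna1 imports nicotinic acid.

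Values are log2 signals, so a difference of 1 is a change of 2-fold, and differences are given as ML1 minus ML8 with their standard error (SE). Of 10928 probe sets, the 5498 that match 1 S. cerevisiae gene were tested with limma over all 7 groups of 2 arrays. A probe set was called at an adjusted p under 0.05 (Benjamini-Hochberg over the 5498). The background limit was 2.22 to 2.26 (log2) per array, and the tested probe sets above it made up 97.5% to 98.5% of each array.

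Both pairs had a high signal for the a-factor gene MFA1 and none above the limit for MF(ALPHA)1, but other alpha-specific genes were above it. Of the 4 measured marker genes 2, LEU2 and URA3, gave a signal although the genotype lists mutant alleles. The a-factor gene MFA1 had 13.90 and 13.84 in ML1 and 13.77 and 13.80 in ML8. The alpha-factor gene MF(ALPHA)1 had 2.08 and 2.09 in ML1 and 2.08 and 2.09 in ML8, below the limit on all 4 arrays. The other alpha-specific genes were above the limit on all 4 arrays. SAG1 had 8.94 and 9.20 in ML1 and 9.11 and 9.22 in ML8. MF(ALPHA)2 had 3.78 and 3.79 in ML1 and 3.75 and 3.64 in ML8, and STE3 had 2.46 and 2.78 in ML1 and 3.35 and 2.52 in ML8. HIS3 and MET17, the gene of the met15 allele, were below the limit on all 4 arrays, as MF(ALPHA)1 was. LEU2, which encodes an enzyme of leucine synthesis, had 14.14 and 14.18 in ML1 and 14.30 and 14.15 in ML8, although the genotype lists leu2D1. URA3, an enzyme gene of uracil synthesis listed as ura3-167, had 12.27 and 11.98 in ML1, a difference of 0.17 ± 0.10 from ML8 (limma adjusted p = 0.414). A transcript level does not show whether an allele is functional. TRP1 is not measured by a tested probe set. The probe set for the kanMX marker had 15.29 to 15.37 in the 4 deletion strains and 1.94 to 2.02 on all wild-type arrays, those with nicotinamide included. The 4 genes deleted elsewhere in the series (NPT1, PNC1, BNA1 and TNA1) had signals of 9.45 to 12.61 on the 4 ML1 and ML8 arrays, and none was called.

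Of the 5498 probe sets, 4 were called between ML1 and ML8, or 0.0728%. YFR057W and YER137C were higher in ML1 (0.0364% of those tested), and SIR2 and PRP11 were lower (0.0364%). In 3 of the 4 the difference was at least 2-fold. The next smallest adjusted p was 0.153. Without ML1 array B, 1132 probe sets were called, and without any 1 of the other 3 arrays 1 or 2 were. At an unadjusted p under 0.05 there were 406 probe sets higher and 582 lower in ML1, together 18.0%. Both ML1 arrays lay above both ML8 arrays in 1155 probe sets and below them in 1113, together 41.3%. The median difference over all probe sets was 0.020, and 93.4% differed by under 0.5 between the means of the pairs.

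**Figure D1:**
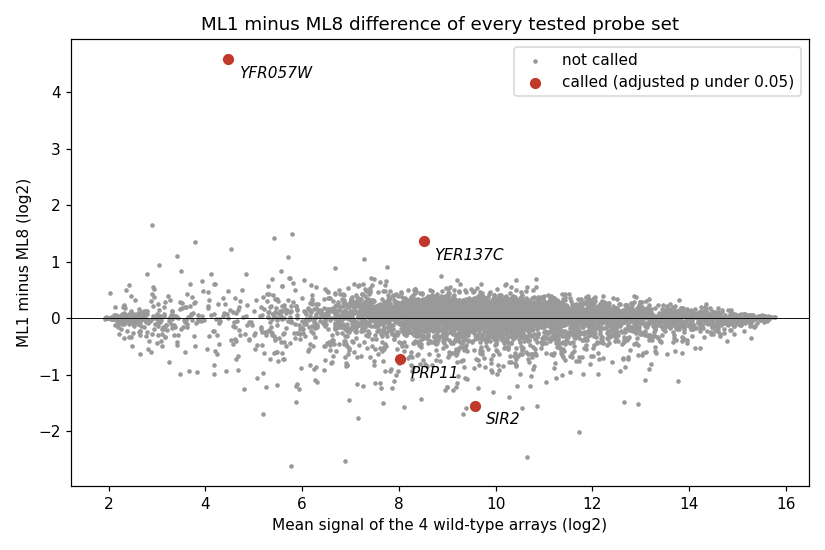
ML1 minus ML8 difference (vertical axis, log2) against the mean signal of the 4 wild-type arrays (horizontal axis, log2), 1 point per tested probe set. Red points mark the 4 called probe sets; YFR057W lies at 4.58, far from all others, while SIR2 at -1.55 lies among larger differences that were not called.

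YFR057W separated the pairs most. It is an uncharacterised gene and, in the gene order of the R64 reference, the outermost protein-coding gene of the right end of chromosome VI, a place where Sir-dependent silencing is known to act. Its signal was 6.94 and 6.58 in ML1 and 2.20 and 2.15 in ML8. Both ML8 arrays were below the background limit, so the transcript was detected in one pair of wild-type cultures and not in the other. The difference was 4.58 ± 0.11 (SE, n = 2 arrays a pair, limma adjusted p = 4.31e-08), which is at least 22.8-fold against the limit of the ML8 arrays. Leaving out any 1 of the 4 arrays gave 4.4 to 4.76, called each time. In a fit of only the 4 wild-type arrays YFR057W was the only called probe set (adjusted p = 0.0495, limma).

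The groups that share each of these states can be read from the other 10 arrays. In bna1Δ the signal of YFR057W was 2.15 and 2.25, below the limit as in ML8, and bna1Δ minus ML8 was 0.02 ± 0.11 (limma adjusted p = 0.990). In tna1Δ it was 6.64 and 6.54, and tna1Δ minus ML1 was -0.17 ± 0.11 (limma adjusted p = 0.371). In pnc1Δ it was 6.43 and 6.54, or -0.28 ± 0.11 against ML1 (limma adjusted p = 0.150). No difference from the nearer wild-type pair was called in these 3 strains. In npt1Δ the signal was 6.19 and 6.14, lower than in ML1 by a called -0.59 ± 0.11 (limma adjusted p = 0.0116). With nicotinamide it was 7.29 and 7.29, above ML1 by a called 0.53 ± 0.11 (limma adjusted p = 0.00825). ML8 and bna1Δ were thus the only groups of the 7 with YFR057W below the limit. This pattern was read from YFR057W itself, so its own match is built in. No other tested probe set was below the limit on both arrays of ML8 and bna1Δ and above it on both arrays of the other 5 groups.

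SIR2 was lower in ML1. Its signal was 8.96 and 8.65 in ML1 and 10.35 and 10.36 in ML8, with no overlap and with ML8 arrays that were nearly equal. The difference of -1.55 ± 0.19 (SE, n = 2 a pair) corresponds to a 2.93-fold lower signal in ML1 (limma adjusted p = 0.0248). The call was lost without ML1 array A (-1.71, adjusted p = 0.0747), without ML8 array A (-1.56, adjusted p = 0.328), without ML8 array B (-1.55, adjusted p = 0.167) and in the fit of the 4 wild-type arrays alone (adjusted p = 0.691, limma in each case). The size of the difference stayed between -1.71 and -1.4 when any 1 array was left out.

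Across the series SIR2 took 3 levels. In npt1Δ it was 10.40 and 10.20, and in bna1Δ 10.45 and 10.21, against which ML8 differed by less than the spread of the arrays (npt1Δ minus ML8 -0.06 ± 0.19, limma adjusted p = 1.0; bna1Δ minus ML8 -0.03 ± 0.19, limma adjusted p = 0.992). In pnc1Δ it was 9.11 and 8.67, which was 0.08 ± 0.19 from ML1 (limma adjusted p = 0.831). In tna1Δ it was 8.67 and 8.21, which was -0.36 ± 0.19 from ML1 (limma adjusted p = 0.287). With nicotinamide it was 9.65 and 9.69, between the pairs and called against both, at 0.86 ± 0.19 against ML1 (limma adjusted p = 0.0123) and -0.69 ± 0.19 against ML8 (limma adjusted p = 0.0416). Whether SIR2 was called in a mutant turned on the pair used. In pnc1Δ and tna1Δ it was called lower against ML8 (-1.47 ± 0.19, limma adjusted p = 0.00680, and -1.92 ± 0.19, limma adjusted p = 0.00476) and not called against ML1. In npt1Δ and bna1Δ it was called higher against ML1 (1.5 ± 0.19, limma adjusted p = 0.00116, and 1.52 ± 0.19, limma adjusted p = 0.0240) and not called against ML8.

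PRP11, which encodes a splicing factor of the U2 snRNP, is the next protein-coding gene beside SIR2 on chromosome IV. Its signal was 7.77 and 7.54 in ML1 and 8.38 and 8.38 in ML8, a difference of -0.73 ± 0.09 (SE, n = 2 a pair, limma adjusted p = 0.0248). Like SIR2 it did not overlap between the pairs, with a smaller gap. In npt1Δ it was 8.36 and 8.41, and in bna1Δ 8.46 and 8.40, at the level of ML8 (differences of 0.00 ± 0.09 and 0.04 ± 0.09, limma adjusted p = 1.0 and 0.949). In pnc1Δ it was 7.85 and 7.70, and in tna1Δ 7.68 and 7.53, near ML1 (differences of 0.12 ± 0.09 and -0.05 ± 0.09, limma adjusted p = 0.421 and 0.760). With nicotinamide it was 7.96 and 7.97, between the pairs and called against both. The order of the groups for PRP11 was thus in the same 3 tiers as for SIR2. Without ML8 array A or B the PRP11 difference was not called (adjusted p = 0.328 and 0.167, limma), nor with a variance trend (adjusted p = 0.0639, limma).

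YER137C, an uncharacterised gene of chromosome V, did not follow those tiers. Its signal was 9.45 and 8.93 in ML1 and 7.82 and 7.85 in ML8, a difference of 1.36 ± 0.16 (SE, n = 2 a pair, limma adjusted p = 0.0248), or 2.57-fold. The 10 arrays of the other 5 groups lay between 8.88 and 9.69, so that both ML8 arrays were the lowest of the series. Against ML8 it was called higher in npt1Δ, pnc1Δ, bna1Δ and with nicotinamide (1.20 to 1.82, limma adjusted p = 6.10e-05 to 0.0477), and in tna1Δ it was 1.14 ± 0.16 higher without a call (limma adjusted p = 0.0707). Against ML1 none of the 5 conditions was called (-0.22 to 0.46, limma adjusted p = 0.0855 to 0.977). The ML1 minus ML8 call was lost without ML1 array A (1.10, adjusted p = 0.0747), without ML8 array A (1.35, adjusted p = 0.328) and without ML8 array B (1.37, adjusted p = 0.167, limma in each case).

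**Figure D2:**
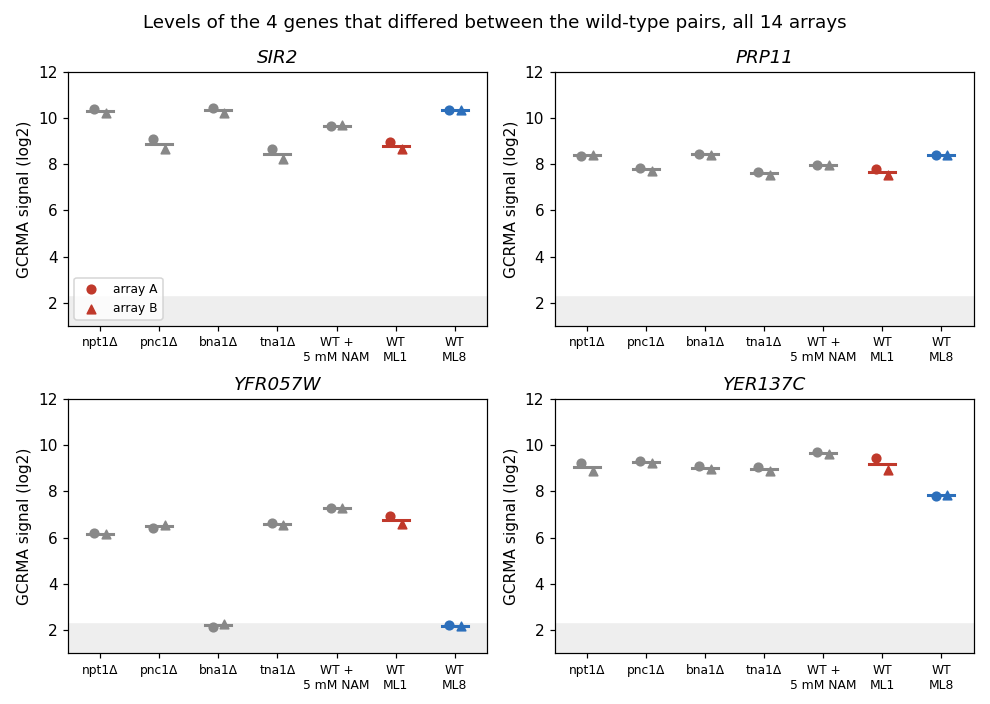
Signal (vertical axis, log2) of SIR2, PRP11, YFR057W and YER137C on all 14 arrays, circles for array A and triangles for array B, with a bar at the mean of each pair and grey shading up to the highest background limit, 2.26. SIR2 and PRP11 are high in npt1Δ, bna1Δ and ML8, YFR057W is in the shaded range in bna1Δ and ML8, and YER137C is low in ML8.

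The genes around the called ones were examined in the gene order of R64. Around SIR2 and PRP11 no other measured gene within 4 places was called. MTF2, a gene of mitochondrial RNA metabolism on the PRP11 side, differed by 0.21 ± 0.11, and FAD1, the gene of FAD synthetase, by 0.21 ± 0.11. NAT1, a subunit gene of an N-terminal acetyltransferase on the SIR2 side, lay between 11.93 and 12.09 on the 4 arrays, a difference of 0.04 ± 0.08. None of these 3 was called (limma adjusted p = 0.323, 0.356 and 0.833). Farther out, MRP10, PRM7, PUS9 and BSC1 differed by -0.34 to 0.10. NPC2, a gene of sterol transport, differed by -0.94 ± 0.31 without a call (limma adjusted p = 0.209), and its arrays ran 11.55 and 12.64 in ML1 and 13.22 and 12.85 in ML8.

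Around YFR057W, the nearest measured gene inward, IRC7, had 10.79 and 11.36 in ML1 and 11.25 and 10.95 in ML8, a difference of -0.02 ± 0.18 (limma adjusted p = 0.977). The hexokinase gene HXK1 differed by 0.32 ± 0.27 and the proteasome gene RPN12 by -0.07 ± 0.07, with no call. Around YER137C, YER134C at 0.51 ± 0.21 and RTR1, the gene of an RNA polymerase II phosphatase, at -0.43 ± 0.16 were the nearest measured ones with differences over 0.4, neither called (limma adjusted p = 0.257 and 0.231).

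**Figure D3:**
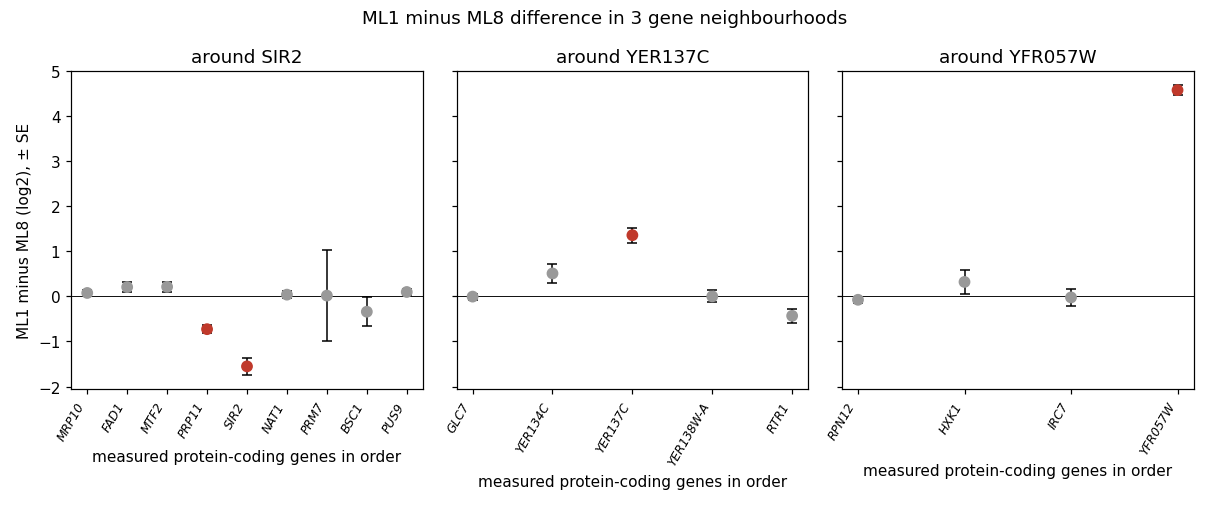
ML1 minus ML8 difference (vertical axis, log2, bars show SE) of protein-coding genes in chromosome order around SIR2, YER137C and YFR057W; red points were called, and genes without a tested probe set are left out. SIR2 at -1.55 and the adjacent PRP11 at -0.73 are both called, YER137C is called at 1.36, and YFR057W at 4.58 stands alone beside IRC7 at -0.02.

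The other components of silencing did not differ by a call. Of 18 measured genes in the list of sirtuins and their partners, 1 was called (SIR2, lower), against 0.0728% over all probe sets, and the median of the list was 0.13, against 0.02 over all genes. That median was 0.20 for array A of ML1 and 0.06 for array B, each set against the ML8 mean. At an unadjusted p under 0.05, 6 of the 18 were higher in ML1 and 2 were lower, beside 406 and 582 of all 5498 probe sets. SIR3 and SIR4 encode the partners of Sir2 at telomeres. SIR3 had 9.42 and 9.24 in ML1 and 8.90 and 9.28 in ML8 (0.24 ± 0.13, limma adjusted p = 0.360). SIR4 had 8.95 and 8.88 in ML1 and 8.83 and 9.03 in ML8 (-0.02 ± 0.12, limma adjusted p = 0.971). Both overlapped between the pairs.

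The sirtuin paralogues moved by small amounts. HST1, which represses middle sporulation genes together with Sum1, had 11.18 and 10.96 in ML1 and 10.78 and 10.83 in ML8 (0.27 ± 0.08, limma adjusted p = 0.193). HST2, a mainly cytoplasmic sirtuin, had 8.51 and 8.94 in ML1 and 9.34 and 9.09 in ML8 (-0.49 ± 0.13, limma adjusted p = 0.193). HST3 and HST4, which act on histone H3, differed by 0.20 ± 0.08 and 0.36 ± 0.12 (limma adjusted p = 0.245 and 0.217). SUM1 itself differed by 0.32 ± 0.09 (limma adjusted p = 0.193). All 5 were without overlap between the pairs, as were 41.3% of all probe sets.

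No tested probe set of the silent mating loci was called, and that of HMRA1 does not separate HMR from MAT. The probe set of HMRA1, whose sequence is also present at MAT in a MATa strain, had 10.26 and 9.91 in ML1 and 10.13 and 10.21 in ML8 (-0.09 ± 0.13, limma adjusted p = 0.763). HMLALPHA1, measured by a probe set shared with its copy at MAT, was below the limit on all 4 arrays, between 2.02 and 2.03. This silent gene of HML was thus not detected in either pair. The a-specific genes, which the proteins of HML would turn off, did not differ by a call in any of the 7 measured members (median 0.09). Their SE was large (0.54 for MFA1) because the fit pools the spread of all pairs and the cultures with nicotinamide had 9.33 and 7.05 for MFA1. STE2, the gene of the alpha-factor receptor, had 14.66 and 14.65 in ML1 and 14.56 and 14.59 in ML8.

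Near chromosome ends YFR057W was the only called gene, and 3 genes, YFR057W included, differed by over 1 either way. For this, the 10 protein-coding genes closest to each of the 32 ends were taken. Of these, 235 were measured, 1 was called and 19 were below the limit on all 4 arrays. Among all 5498 probe sets 4 were called (0.0728%) and 65 differed by over 1 either way. The median difference of the 235 was -0.01, and the next highest after YFR057W was 0.77. At an unadjusted p under 0.05 there were 10 higher and 33 lower in ML1, which is 43 of 235. Over all 5498 probe sets 406 were higher and 582 lower, together 18.0%. The lowest was ARR2, an arsenate reductase gene, at -1.12 ± 0.31 (limma adjusted p = 0.193), with 5.13 and 6.35 in ML1 and 6.78 and 6.95 in ML8. Both ML1 arrays lay above both ML8 arrays in 34 of the 235 and below them in 65, together 42.1%. Over all probe sets these counts were 1155 and 1113, together 41.3%. The genes at the ends thus leaned to lower values in ML1, and this lean was not tested.

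Outside the silencing genes no list held a called gene. The 50 lists covered metabolism, stress, growth, the cell cycle, sporulation and mating. Their median differences lay between -0.20, in the PAU genes of the cell wall, and 0.19, in the haploid-specific genes (0.11 for array B of ML1). Of the 13 measured PAU genes, 10 were read by probe sets shared between near-identical genes. Of the 50 medians, 37 lay within 0.1 of 0. NAD+ metabolism, which links the other groups of the series, had no called gene either. De novo NAD+ synthesis had a median of -0.11 over 7 genes (-0.01 for array B of ML1), and NAD+ salvage and vitamin uptake one of -0.02 over 16 genes. PNC1, the nicotinamidase gene, had 11.67 and 12.22 in ML1 and 12.01 and 11.89 in ML8.

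Some lists leaned one way without a called member. In the respiratory chain and ATP synthase 17 of 34 genes had both ML1 arrays below both ML8 arrays and 2 had both above, and 12 were lower at an unadjusted p under 0.05, with a median of -0.14 that was -0.20 for array A of ML1 and -0.07 for array B. Over all genes, 20.2% had both ML1 arrays below and 21.1% had both above. At an unadjusted p under 0.05, 578 of all 5449 genes were lower in ML1. ATP2, a subunit gene of ATP synthase, had 12.30 and 13.16 in ML1 and 13.43 and 13.27 in ML8 (-0.62 ± 0.22, limma adjusted p = 0.225). The lowest member was COX9, a gene of cytochrome c oxidase, at -1.56 ± 0.58 (limma adjusted p = 0.233), with 8.94 and 11.20 in ML1 and 11.78 and 11.48 in ML8. Array A of ML1 was low in both genes and array B was near ML8.

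In purine synthesis 12 of 21 genes had both ML1 arrays above both ML8 arrays and 1 had both below. Over all genes, the background for each list here, 21.1% were above and 20.2% below. The median of purine synthesis was 0.13 (0.11 for array A of ML1 and 0.16 for array B). ADE17, a gene of the last steps of the pathway, had 14.47 and 14.46 in ML1 and 14.30 and 14.14 in ML8 (0.24 ± 0.06, limma adjusted p = 0.190). Of the genes of amino acid synthesis under Gcn4, 22 of 50 were above and 3 below, with a median of 0.05. Among targets of the mating pathway factor Ste12, 12 of 29 were above and 2 below, with a median of 0.19, which was 0.28 for array A of ML1 and 0.01 for array B, each set against the ML8 mean. The cell wall integrity list had 1 of 25 above and 12 below, with a median of -0.14, which was -0.28 for array A and -0.02 for array B. In the ribosomal proteins, whose signals lie near the top of the scale, 14 of 128 were above and 49 below, with a median of -0.01.

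For ribosome biogenesis array A of ML1 was shifted and array B lay near the ML8 mean. The list had a median of 0.13 over 72 genes, which was 0.32 for array A of ML1 and -0.03 for array B when each was set against the ML8 mean. In RNA polymerase I and III the median of 0.09 over 24 genes was 0.21 for array A of ML1 and -0.05 for array B. These 2 lists describe growth and ribosome production, and neither had a called gene.

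The 2 cultures within ML1 differed more than those of any other pair. Arrays A and B of ML1 were over 1 apart (log2) in 110 probe sets, 24 higher in A and 86 higher in B, and over 0.5 apart in 697. In ML8 there were 33 over 1 apart, 29 higher in A and 4 higher in B, and 221 over 0.5. The other 5 pairs had 12 to 48 over 1 apart. The SD of A minus B over all probe sets was 0.361 in ML1 and 0.232 in ML8. Set against the ML8 mean, array A of ML1 was over 1 away in 194 probe sets and array B in 23. Pearson's r across probe sets was 0.992 between the ML1 arrays and 0.997 between the ML8 arrays. It was 0.986 between the A arrays of the pairs and 0.998 between their B arrays, so the closest arrays of the 4 came from different pairs.

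The genes with the largest gaps within ML1 were mostly lower on array A. SLZ1, a sporulation-specific gene, was higher on array A, with 5.36 and 2.08 in ML1 and 2.07 and 2.08 in ML8, so that its difference of 1.64 ± 0.77 came from array A alone. SWT21, a gene linked to splicing, had 4.02 and 6.52 in ML1 and 6.74 and 6.19 in ML8. GSY1, a glycogen synthase gene, had 6.60 and 8.82 in ML1 and 8.32 and 7.84 in ML8. NRG1, the gene of a glucose-dependent repressor, had 6.29 and 8.20 in ML1 and 8.38 and 8.59 in ML8. In these 3 genes array B of ML1 was within 1 of an ML8 array and array A was not. YLR154C-H, within the ribosomal DNA locus and measured by a shared probe set, was also higher on array A, with 11.25 and 9.10 in ML1 and 9.88 and 9.64 in ML8. Without array A the difference of GSY1 was 0.75, against -0.37 with it, that of SWT21 was 0.06, against -1.19, and that of YLR154C-H was -0.66, against 0.41, none of them called.

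Within ML8 the largest gaps were higher on array A. PRM7, a pheromone-regulated gene 2 places from SIR2, had 9.21 and 9.69 in ML1 and 10.52 and 8.34 in ML8 on its stronger probe set. PLN1, a gene of lipid droplets, had 8.37 and 8.39 in ML1 and 10.64 and 8.57 in ML8. ARG80, a regulator of arginine genes, had 6.86 and 6.45 in ML1 and 8.56 and 7.16 in ML8. The 4 others of this kind, YOR338W, YFL067W, EDS1 and MIG3, had gaps of 1.35 to 1.61. PRM7 was also higher on array A than on array B in npt1Δ (9.94 and 8.97), pnc1Δ (10.91 and 9.87), bna1Δ (10.61 and 8.51) and tna1Δ (10.35 and 7.74), but lower on array A with nicotinamide (10.71 and 11.29), as in ML1.

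**Figure D4:**
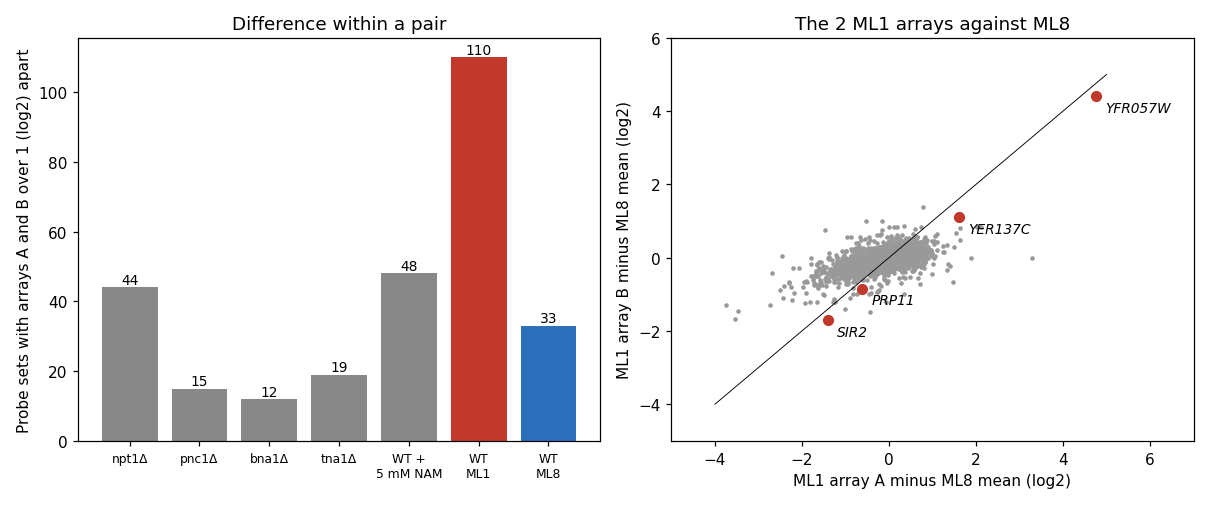
Left: number of tested probe sets whose arrays A and B differ by over 1 (log2) in each pair of the series, with 110 in ML1 and 33 in ML8. Right: array A of ML1 (horizontal) and array B of ML1 (vertical), each minus the ML8 mean (log2), 1 point per probe set with the 4 called ones in red; the cloud is wider along the axis of array A, and the called probe sets lie near the line of equal values.

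Differences larger than that of SIR2 were not called where the arrays within a pair disagreed, and the following genes were chosen after their values were seen. HEM3, a gene of heme synthesis, had 3.52 and 5.40 in ML1 and 7.64 and 6.50 in ML8, a difference of -2.61 ± 0.77 (limma adjusted p = 0.193). CPD1, the gene of a cyclic phosphodiesterase, had 4.40 and 6.84 in ML1 and 8.81 and 7.47 in ML8 (-2.52 ± 0.76, limma adjusted p = 0.193). DED1, the gene of an RNA helicase of translation initiation, had 8.42 and 10.44 in ML1 and 12.54 and 11.24 in ML8 (-2.46 ± 0.72, limma adjusted p = 0.193). In all 3 the order of the arrays from low to high was ML1 A, ML1 B, ML8 B, ML8 A.

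HAC1, the gene of the transcription factor of the unfolded protein response, kept the same order, with 9.99 and 11.45 in ML1 and 13.24 and 12.21 in ML8 (-2.01 ± 0.55, limma adjusted p = 0.193). So did MET13, a gene of methionine synthesis, with 5.61 and 6.94 in ML1 and 8.57 and 7.52 in ML8 (-1.77 ± 0.47, limma adjusted p = 0.193). Without ML1 array A these 5 differences were -1.67 for HEM3, -1.30 for CPD1, -1.45 for DED1, -1.28 for HAC1 and -1.10 for MET13, none called. Of the 20 largest differences without a call, 17 were lower in ML1 and 3 were higher (SLZ1, YPR027C and PRM2). In the called genes the arrays within a pair differed by at most 0.52.

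The control probe sets for RNA quality are given beside these results. The gap between 3′ and 5′ control probe sets (the median over 8 control genes) was 2.09 and 1.93 in ML1 and 1.84 and 1.85 in ML8, with 1.70 to 2.11 over the series. The 18S rRNA control had 11.93 and 9.84 in ML1 and 13.95 and 9.44 in ML8, higher on array A of each pair. The part of RNA quality in these differences was not tested.

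The choice of pair also moved the number of genes called in each condition of the study. These comparisons share arrays, so their counts are given side by side. In npt1Δ 341 probe sets were called against ML1 (6.20%) and 182 against ML8 (3.31%). In pnc1Δ 258 were called against ML1 (4.69%) and 68 against ML8 (1.24%). With nicotinamide 949 were called against ML1 (17.3%) and 693 against ML8 (12.6%). In these 3 conditions the count was higher against ML1, but its size rested on the ML1 array that was kept. A count without an ML1 array is not comparable with the count against both ML8 arrays, since fewer arrays enter it. In each of the 3 conditions, leaving out either ML1 array gave more calls against ML1 than leaving out either ML8 array gave against ML8. Without ML1 array B the counts against ML1 were 1621 in npt1Δ, 1303 in pnc1Δ and 1508 with nicotinamide, and without ML1 array A they were 163, 87 and 709. Without ML8 array A or B, pnc1Δ had 12 or 19 calls against ML8, and without ML8 array A nicotinamide had 413.

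Few probe sets were called in bna1Δ and tna1Δ. The 4 genes that separate the wild-type pairs gave 3 of the 4 calls in bna1Δ against ML1 and 3 of the 4 in tna1Δ against ML8, but 1 of 5 in bna1Δ against ML8 and 0 of 1 in tna1Δ against ML1. Those 4 genes were picked on the same ML1 and ML8 arrays, so their return here is partly built in. Against ML1, bna1Δ had 4 calls (0.0728%): BNA1 itself, YFR057W lower, and SIR2 and PRP11 higher. Against ML8, bna1Δ had 5 calls (0.0909%): BNA1 itself, FIT1, ARN2 and YLL066W-B lower, and YER137C higher. All but BNA1 were close to the threshold (limma adjusted p = 0.0477). FIT1 and ARN2 serve iron uptake, and YLL066W-B was measured by a shared probe set. These genes were chosen after their values were seen. Against ML1, tna1Δ had 1 call (0.0182%), TNA1 itself. Against ML8, tna1Δ had 4 calls (0.0728%): TNA1, YFR057W higher, and SIR2 and PRP11 lower. Without ML1 array B the counts against ML1 were 342 in bna1Δ and 1369 in tna1Δ. Against ML8 they were 1 without ML8 array A and 3 without ML8 array B in bna1Δ, and 2 without ML8 array A in tna1Δ.

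**Figure D5:**
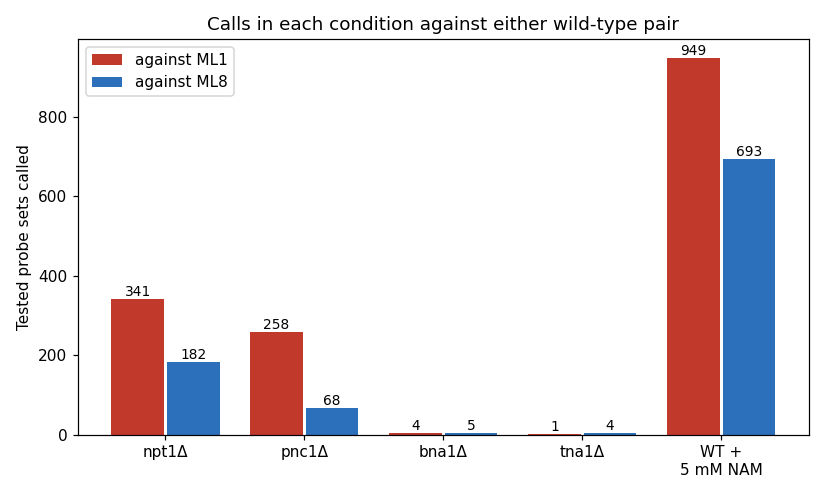
Number of the 5498 tested probe sets called (vertical axis, adjusted p under 0.05) in each condition against ML1 (red) and against ML8 (blue). Counts against ML1 exceed those against ML8 in npt1Δ (341 and 182), pnc1Δ (258 and 68) and with nicotinamide (949 and 693), while bna1Δ and tna1Δ have 1 to 5 calls against either.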

How the data were processed

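The deposited table holds log2 signals that the authors computed with GCRMA, per the labels and the submitters' processing notes; no version of it is stated there. All 14 arrays entered as deposited, with no further normalization. The platform annotation paired probe sets with genes, which were named from the R64 reference (names and gene order only): 5498 matched 1 gene each (5449 genes, 128 probe sets of a shared design). The other probe sets were 213 array controls, 3470 with no gene given, 1746 whose gene is not in the reference and 1 with several genes. The 95th percentile of those 1746 gave each array's background limit. A gene with several probe sets was represented by the one with the highest mean signal.

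Group means were fitted with limma 3.58.1 in R 4.3.3 (lmFit, eBayes, 7 residual degrees of freedom, prior of 2.10 with SD 0.0955). The fit was checked on simulated arrays, independent of each other and with the same spread in every group. In the data ML1 spread more than the other pairs, and the check does not cover that. Genes named are the called ones, the first members of each list by the rule of at most 4 called or 2 brightest, marker, mating type and deleted genes, and the largest differences within a pair; others are said to be chosen after their values were seen. Neighbours, silencing genes and chromosome ends are described around the called genes. The members and lists were chosen with earlier results of these data known. The series describes duplicate cultures, so p-values measure the spread between the 2 cultures of a pair, pooled over the 7 groups. They do not measure the spread between separately coded pairs of the same strain. The number of arrays limits the precision. Promoter motifs were not analysed here.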

Additional observations from a re-analysis of the deposited data

Results flagged for a closer look

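A pair of probe sets outside the 5498 tested differed between ML1 and ML8 when all probe sets of the array entered the fit. A probe set with no gene given had 9.0 and 9.0 in ML1 and 8.55 and 8.56 in ML8, a difference of 0.446 ± 0.034 (SE, limma adjusted p = 0.00521). A reporter control probe set of the array had 13.61 and 13.38 in ML1 and 12.53 and 12.63 in ML8, a difference of 0.916 ± 0.069 (SE, limma adjusted p = 0.00521). Both were higher on both ML1 arrays than on every array of the deletion strains, and the arrays with nicotinamide lay between ML1 and ML8. Groups of 2 arrays allow no test for an array that stands apart.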

How the results depend on the processing

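YFR057W was called in all 20 alternatives (4.4 to 4.76, limma adjusted p = 2.01e-08 to 0.0495). SIR2 and YER137C were called in 12 of the 20 (-1.71 to -1.4 and 1.10 to 1.62) and PRP11 in 11 (-0.84 to -0.61). None of these 4 genes changed its direction. Of 181 genes recomputed under each alternative, 39 changed sign without ML1 array A and 71 in at least 1 alternative, none of them called. The count of 4 calls stood with quantile normalization, median centring, cyclic loess, a filter on dim probe sets, no shared probe sets, robust moderation and an adjusted p under 0.1. It was 1 (1 higher, 0 lower) with only the 4 wild-type arrays, no moderation, array weights or an adjusted p under 0.01, and 3 (2 higher, 1 lower) with a variance trend or at least 2-fold. With all probe sets it was 3 (3 higher, 0 lower), 1 of them among the 4. Leaving out 1 array gave 1 to 1132 calls (1 to 465 higher, 0 to 667 lower), the highest without ML1 array B, where ML1 array A stands alone and is assumed to vary like the other groups. The cause was not tested. SIR2, YER137C and PRP11 lost their calls in the fits with 1 call, with all probe sets and without either ML8 array. Each ML1 array had a weight of 0.355, against 0.954 to 1.57 in the other groups.

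Leaving out 1 wild-type array gave, against ML1, 163 to 1621 calls in npt1Δ, 87 to 1303 in pnc1Δ, 3 to 342 in bna1Δ, 1 to 1369 in tna1Δ and 709 to 1508 with nicotinamide. Against ML8 it gave 126 to 135, 12 to 19, 1 to 3, 2 to 3 and 413 to 540 calls in the same order.

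With the letter as a replicate block there were again 4 calls (2 higher, 2 lower). The letter effect was called in 461 probe sets, and the A minus B differences correlated at 0.107 to 0.593 among the 6 groups other than ML1. Between ML1 and the others they correlated at -0.232 to 0.292, so the letters were not taken to pair ML1 with ML8. With ML8 the correlation was -0.215, and a replicate block with the ML1 letters crossed, chosen after seeing this, gave 129 calls (20 higher, 109 lower). The promoter motif counts were not run.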
